A study of Mus musculus with 6 samples.

Results

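Ikaros family transcription factors and genes of early lymphoid priming were examined in adult mouse hematopoietic stem cells (HSCs). They comprise 10 genes of 18193 that carried a gene symbol of their own on the arrays. The genes are Ikzf1, Ikzf2, Ikzf3, Satb1, Tcf3, Il7r, Cd27, Notch1, Rag1 and Dntt, taken by symbol together with all of their probe sets, 25 of 45037. The comparison was between genotypes, with 3 arrays labelled PU.1 ki/ki, from mice homozygous for a PU.1 knock-in allele, and 3 arrays labelled wild type (WT). The labels describe no sequence change in the allele, and the title of the series refers to autoregulation of PU.1, the ETS transcription factor encoded by Spi1. All 6 samples were labelled as adult HSCs sorted as lin-, sca1+, ckit+, CD150+ and CD48-, with no treatment named. Only the sample descriptions speak of embryos, and these were set aside. The labels do not say whether the replicates came from separate mice, and each p-value therefore covers no more than the spread among the arrays, possibly a technical one.

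Lymphoid priming is the low expression of lymphoid genes in stem and early progenitor cells before any commitment to the B or T lineage. Ikaros proteins are zinc finger factors that bind DNA as dimers and recruit chromatin remodelling and corepressor complexes. The E proteins encoded by Tcf3 and the chromatin organiser Satb1 also act in early lymphoid progenitors. The IL-7 receptor and Notch1 carry the signals of B and T cell development, Cd27 is a costimulatory receptor of the TNF receptor family, and the products of Rag1 and Dntt cut and modify antigen receptor genes. In the mouse, PU.1 is required for lymphoid as well as myeloid development, and Il7r is among its known targets.

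Promoters are shown for Cd27, whose groups did not overlap on the arrays, for Il7r, a known target of PU.1, and for Rag1, which read at the lowest value of the table on 5 of 6 arrays. The sequences are from RefSeq (GRCm38.p6) and run from 250 bases before to 50 bases after the annotated start. Capitals mark the 6 letters GGAAGT or their reverse complement ACTTCC, which contain the GGAA core bound by ETS factors. The GGAA core alone is not marked, and it also occurs outside the capitals in each sequence shown, that of Cd27 included.
Cd27, chr6:125236978-125237277, minus strand: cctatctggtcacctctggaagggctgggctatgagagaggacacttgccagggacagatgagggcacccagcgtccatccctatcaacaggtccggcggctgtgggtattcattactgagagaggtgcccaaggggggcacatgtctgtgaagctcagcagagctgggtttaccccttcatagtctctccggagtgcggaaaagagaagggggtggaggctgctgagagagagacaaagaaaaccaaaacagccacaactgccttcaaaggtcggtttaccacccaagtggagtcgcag
Il7r, chr15:9529827-9530126, minus strand: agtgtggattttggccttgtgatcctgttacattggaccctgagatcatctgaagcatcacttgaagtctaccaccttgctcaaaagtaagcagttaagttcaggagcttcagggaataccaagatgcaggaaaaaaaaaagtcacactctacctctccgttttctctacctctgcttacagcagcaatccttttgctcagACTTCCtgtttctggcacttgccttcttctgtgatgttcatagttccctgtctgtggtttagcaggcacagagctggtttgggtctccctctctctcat
Rag1, chr2:101649483-101649782, minus strand: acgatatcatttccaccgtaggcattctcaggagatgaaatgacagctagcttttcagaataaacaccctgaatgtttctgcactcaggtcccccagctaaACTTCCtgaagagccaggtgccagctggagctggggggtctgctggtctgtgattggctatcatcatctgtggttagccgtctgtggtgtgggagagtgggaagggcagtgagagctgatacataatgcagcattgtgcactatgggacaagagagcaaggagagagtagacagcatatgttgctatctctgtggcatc
The table held 13 promoters of 8 of the 10 genes, 5 of them of Satb1 with an overlap between a pair, and none of Ikzf2 or Ikzf3. GGAAGT was present on either strand in 7 of the 13, of which 4 belonged to Satb1 and the others to Il7r, Rag1 and Tcf3, and in 23.8% of all 32851 promoters of the same length. By gene the count was 4 of 8. The E box CAGGTG, a site of E proteins, was present in 3 of 13 against 20.2% of all promoters, and TGGGAA, a core recognised by Ikaros proteins, in 3 of 13 against 25.6%, each with 2 of its 3 promoters from Satb1. All 3 were searched on both strands. GGAAGT and TGGGAA share the letters GGAA and can overlap, which they did in 1 promoter, of Satb1. Rag1 held all 3 motifs and Cd27 none of them. The motifs were chosen with the sequences at hand, and a match is a description of the letters, not of binding.

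Values are array intensities, given as mean ± SD over 3 arrays per group. The lowest value in the table is 10, and differences are log2(intensity + 1) of PU.1 ki/ki minus WT. Intensities are not compared between probe sets. The arrays differed in the share of bright probe sets that read low. Of bright probe sets (median of the other 5 arrays at least 500), 0.117 to 0.215% read at least 4-fold below that median on each PU.1 ki/ki array, against 1.20%, 11.5% and 11.3% on WT replicates 1, 2 and 3. By that limit 3 to 5 of the 25 probe sets were bright, depending on the array, and 0 of them read at least 4-fold low. The cause of the low readings on the WT arrays was not tested. Dimmer probe sets, among them all 3 of Ikzf2, were not covered by this check. Among those not covered, Tcf3 1452542_x_at read 43 on WT replicate 3, against 121 to 270 on the other 5 arrays. Notch1 1418633_at read 30 there, against 99 to 242. Spi1 read 170, 212 and 161 in PU.1 ki/ki and 158, 195 and 199 in WT HSCs, a difference of -0.026 ± 0.18 (SE), so this transcript does not tell the genotypes apart, and the labels do not place its probe set relative to the allele.

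No gene of the group passed the threshold, an adjusted p under 0.05 in limma over all 45037 probe sets. Adjusted p ran from 0.508 to 1 over the 25 probe sets, and 0% of all probe sets passed. The readings that separated the genotypes belonged to Ikzf2, with 2 of its 3 probe sets higher in PU.1 ki/ki, to Cd27, higher on its only probe set, and to Satb1, with 1 of 5 probe sets lower. These 4 probe sets, 16% of the 25, were those whose groups did not overlap, and they were also the 4 with an unadjusted p under 0.05 in limma. Of all probe sets 12.1% did not overlap, 6.62% higher and 5.46% lower, and 8.28% had an unadjusted p under 0.05, 4.6% higher and 3.68% lower. Probe sets of a gene share a target, so the 4 stand for 3 genes, and their share is not read as a result about the group. In bulk samples, fewer cells of a type and less RNA per cell cannot be told apart.

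**Figure D1:**
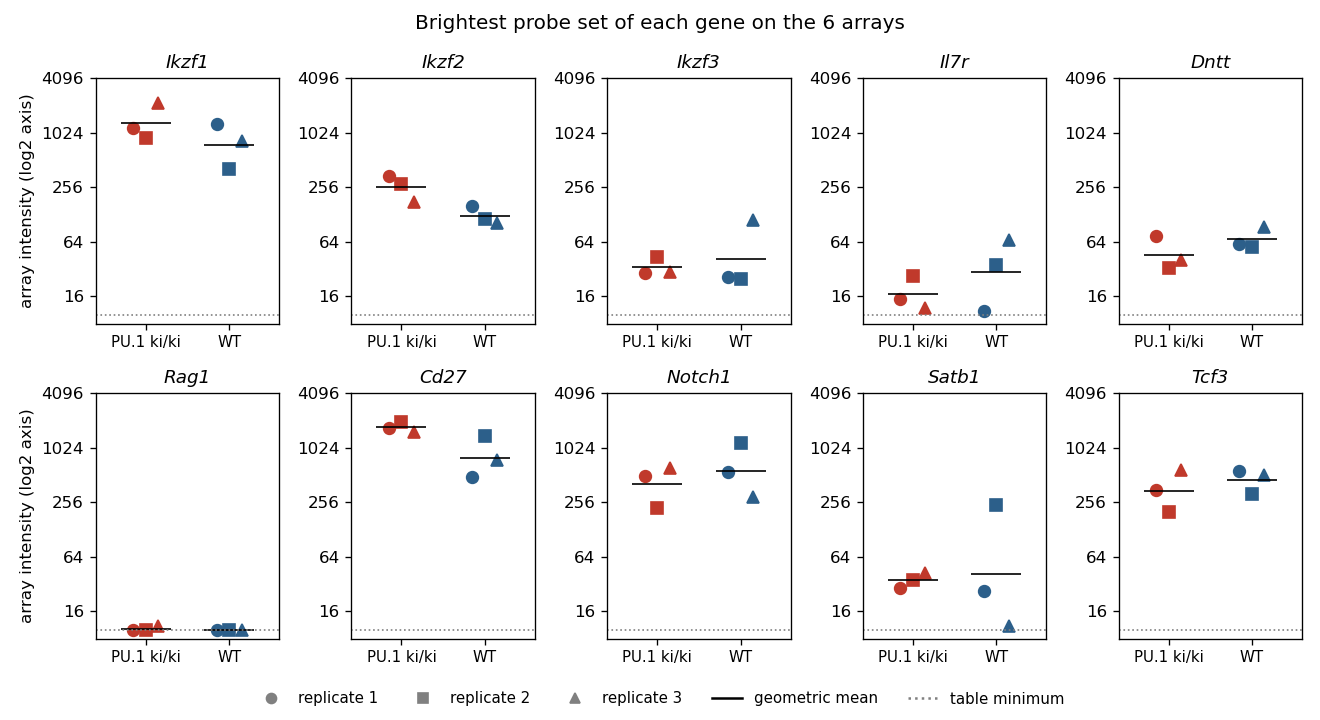
Array intensity (vertical, log2 axis) of the brightest probe set of each of the 10 genes in PU.1 ki/ki and WT HSCs, with a point for each array, a line at the geometric mean of 3 arrays and a dotted line at the table minimum of 10. The 3 PU.1 ki/ki points lie above the 3 WT points for Ikzf2 and Cd27, the groups overlap for the other 8 genes, and Rag1 lies at or next to the minimum throughout.

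Ikzf2 encodes Helios, the Ikaros family member best known from T cells and also expressed in stem cells. Its brightest probe set, 1437542_at, read 341, 282 and 178 in PU.1 ki/ki, against 158, 114 and 103 in WT HSCs. The lowest PU.1 ki/ki reading was above the highest WT reading. The difference was 1.06 ± 0.31 (SE, 95% interval 0.26 to 1.86, limma adjusted p = 0.532). Its probe set 1421643_at read 319, 193 and 404 in PU.1 ki/ki, against 33, 132 and 34 in WT HSCs. Again all 3 PU.1 ki/ki arrays were higher, by 2.44 ± 0.65 (SE, 95% interval 0.78 to 4.09, limma adjusted p = 0.508), the largest difference among the 25 probe sets. The third, 1456956_at, read 162, 63 and 74, against 51, 26 and 63, and the groups met at 63 (difference 1.04, 95% interval -0.26 to 2.34).

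The probe sets of Ikzf2 thus had the same sign, and the sign held when any single array was left out. The difference then lay at 2.10 to 3.09 for 1421643_at, 0.86 to 1.33 for 1437542_at and 0.63 to 1.30 for 1456956_at. WT replicates 2 and 3 had the largest shares of bright probe sets that read low. Against WT replicate 1 as the only WT array, the 3 differences were 3.11, 0.70 and 0.83 in the same order. The unadjusted limma p stayed between 0.00115 and 0.0463 for 1421643_at with single arrays left out and between 0.0068 and 0.0611 for 1437542_at. The exact permutation test, two-sided over 20 regroupings, gave 0.1 for both, the smallest p that 3 arrays against 3 allow.

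Ikzf1 encodes Ikaros, which HSCs express and which is required for lymphoid development. Probe set 1421303_at read 1146, 892 and 2206 in PU.1 ki/ki, against 1283, 414 and 824 in WT HSCs. Its groups overlapped, with the highest reading on PU.1 ki/ki replicate 3 and the lowest on WT replicate 2. The difference was 0.79 ± 0.55 (SE, 95% interval -0.63 to 2.20, limma adjusted p = 0.715), and 0.032 against WT replicate 1 alone. The other probe set, 1436312_at, read 390, 393 and 880, against 530, 244 and 581, with the same array highest and the same array lowest (difference 0.28, 95% interval -1.01 to 1.57).

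Of 19571 probe sets with 1 symbol and a mean at or above the median of all, the 3 genes most like Ikzf1 over the 6 arrays were Ptgr2, Ctbp2 and Bbs9. Pearson r of log2 intensities with 1421303_at was 0.994, 0.990 and 0.990. In all, 56 probe sets had an r above 0.95. With 6 arrays, and with PU.1 ki/ki replicate 3 highest and WT replicate 2 lowest for all 3 genes, this is a description of shared array order.

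Ikzf3 encodes Aiolos, a factor of later B and T cell stages. Its 3 probe sets were dim, each below the median of all probe sets. The brightest read 29, 44 and 30 in PU.1 ki/ki, against 26, 25 and 112 in WT HSCs. The groups overlapped, and the 112 of WT replicate 3 set the negative sign of the difference (-0.31, 0.39 without that array). The other Ikzf3 probe sets read 30 to 42 against 26 to 45 and 14 to 22 against 22 to 24.

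Satb1, a chromatin organiser of lymphoid progenitors and thymocytes, was read by 5 probe sets that pointed in different directions, 3 lower and 2 higher in PU.1 ki/ki. All 5 were below the median of all probe sets. Probe set 1436182_at read 20, 16 and 23 in PU.1 ki/ki, against 90, 55 and 25 in WT HSCs. The groups did not overlap, though WT replicate 3 lay only just above the highest PU.1 ki/ki array. The PU.1 ki/ki readings were near the minimum of 10, while WT replicates 1 and 2 were above the median of their arrays, 43 on both. The difference was -1.32 ± 0.50 (SE, 95% interval -2.58 to -0.051, limma adjusted p = 0.595), and -0.90 without WT replicate 1.

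The brightest Satb1 probe set, 1416008_at, read 29, 36 and 43 in PU.1 ki/ki, against 27, 238 and 11 in WT HSCs. WT replicate 2 was far above the other 5 arrays there, and the difference was -0.24 with it and 0.996 without it. A similar single high array was found on 1439449_at, with 258, 19 and 19 in PU.1 ki/ki, against 12, 11 and 25 in WT. The array with the single high reading was thus a different one on each of these probe sets. The remaining Satb1 probe sets read 14 to 81 against 17 to 21 (difference 0.67) and 10 to 16 against 14 to 17 (-0.28).

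Tcf3 encodes the E proteins of early B cell development, and the annotation's gene number is that gene's, not that of the Tcf7l1 gene that has shared the name. Probe set 1426297_at read 349, 202 and 582 in PU.1 ki/ki, against 575, 318 and 514 in WT HSCs. The groups overlapped over most of their range (difference -0.40, 95% interval -1.59 to 0.79, limma adjusted p = 0.815). Without PU.1 ki/ki replicate 2 the difference was -0.013, and without PU.1 ki/ki replicate 3 it was -0.77. The other Tcf3 probe sets differed in sign, by -0.89 and 0.65. On 1427764_a_at WT replicate 1 read 651 and the other 5 arrays 55 to 193, and without that array the difference was -0.028. The 0.65 was that of 1452542_x_at, where WT replicate 3 read 43 and the other 5 arrays 121 to 270. Without WT replicate 3 the difference there was -0.14, and against WT replicate 1 alone it was -0.32.

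Cd27 is carried by multipotent progenitors and by a part of the HSCs. Its probe set 1452389_at read 1721, 1957 and 1541 in PU.1 ki/ki, against 489, 1381 and 744 in WT HSCs, or 1740 ± 209 against 871 ± 459. The PU.1 ki/ki arrays lay close together and the lowest of them was above the highest WT array. The difference was 1.12 ± 0.41 (SE, 95% interval 0.076 to 2.17, limma adjusted p = 0.593), and the exact permutation p was 0.1. With single arrays left out it was 0.77 to 1.52, the lowest without WT replicate 1, with an unadjusted limma p of 0.0036 to 0.108. Against WT replicate 1 alone it was 1.82.

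Il7r encodes the alpha chain of the IL-7 receptor, which marks common lymphoid progenitors and is absent from the surface of HSCs. Probe set 1448575_at read 15, 27 and 12 in PU.1 ki/ki, against 11, 36 and 67 in WT HSCs. The readings overlapped, and the lowest of each group was close to the minimum of 10 (difference -0.79, 95% interval -2.64 to 1.05, limma adjusted p = 0.773). The sign rested on WT replicates 2 and 3, since the difference was 0.58 against WT replicate 1 alone. The other Il7r probe set read 10 to 14 against 11 to 27.

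Notch1, the receptor that directs progenitors to the T lineage, was read by a pair of probe sets. Probe set 1418634_at read 500, 225 and 620 in PU.1 ki/ki, against 561, 1164 and 292 in WT HSCs. The WT arrays held both the highest reading and one below 2 of the PU.1 ki/ki arrays (difference -0.48, 95% interval -2.15 to 1.19, limma adjusted p = 0.840). Without WT replicate 2 the difference was 0.025. On 1418633_at the readings were 99, 149 and 133, against 234, 242 and 30, with WT arrays above and below all 3 PU.1 ki/ki arrays (difference 0.061).

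Rag1, a subunit of the recombinase that starts antigen receptor rearrangement, was at the minimum of 10 on 5 of 6 arrays and at 11 on PU.1 ki/ki replicate 3, so no fold is given. Dntt encodes terminal transferase, which adds bases at the joints. Its probe set 1450545_a_at read 75, 33 and 40 in PU.1 ki/ki, against 61, 57 and 93 in WT HSCs. The groups overlapped through PU.1 ki/ki replicate 1 alone (difference -0.56, 95% interval -1.53 to 0.42, limma adjusted p = 0.711). The other Dntt probe sets also had a negative sign, -0.19 and -0.57, and on both PU.1 ki/ki replicate 3 was the highest of the 6 arrays, with 103 and 76. With single arrays left out, the difference of Dntt on 1449757_x_at ran from -0.82 without PU.1 ki/ki replicate 3 to 0.21 without PU.1 ki/ki replicate 2. On 1420166_at it ran from -1.18 without PU.1 ki/ki replicate 3 to -0.21 without PU.1 ki/ki replicate 1.

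**Figure D2:**
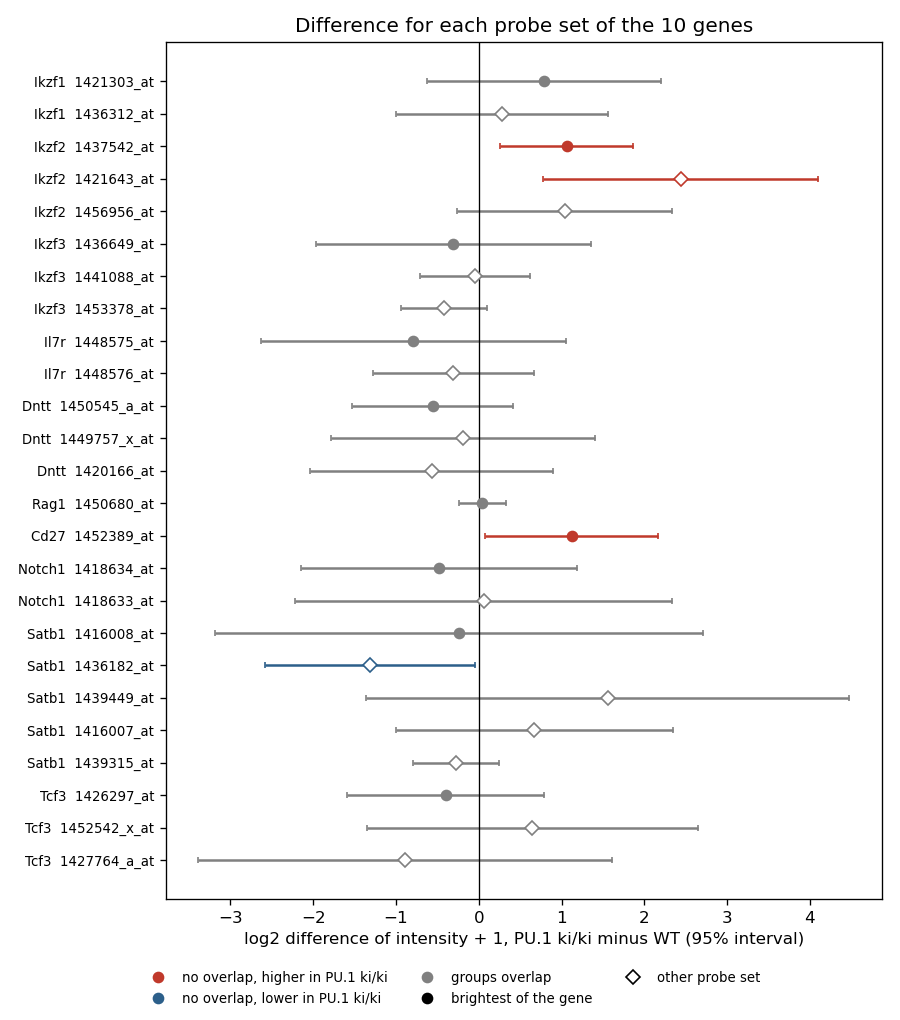
Difference of log2(intensity + 1), PU.1 ki/ki minus WT (horizontal), with its 95% interval from limma, for each of the 25 probe sets of the 10 genes (rows). Filled circles are the brightest probe set of a gene, and colour marks the 4 probe sets whose groups did not overlap, 3 higher and 1 lower.

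Among the 8 genes with several probe sets, and with all 6 arrays, all differences were positive for Ikzf1 and Ikzf2 and all were negative for Ikzf3, Il7r and Dntt, while those of Satb1, Tcf3 and Notch1 had both signs. With a single array left out, the sign changed on 1 probe set each of Ikzf1, Il7r and Dntt and on 2 of Ikzf3. It also changed on 1452542_x_at of Tcf3 and on probe sets of Satb1 and Notch1. By the brightest probe set, 3 genes were above 0 and 6 below, and Rag1, at the minimum, was given no sign. The median difference of the 10 genes was -0.27, and -0.31 without Rag1, beside 0.0056 over all 18193 genes. The median of the 10 was not stable, and lay at 0.20 against WT replicate 1 alone and at 0.033 without WT replicate 2. Of the 25 probe sets, 14 kept their sign in all 6 fits that left out a single array. Quantile normalization and centring on array medians, after which the median of all probe sets was -0.042 and -0.105, kept the sign of all 4 probe sets without overlap. Centring gives every probe set the same shift, smaller than any of these 4 differences, so it could not change their signs.

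**Figure D3:**
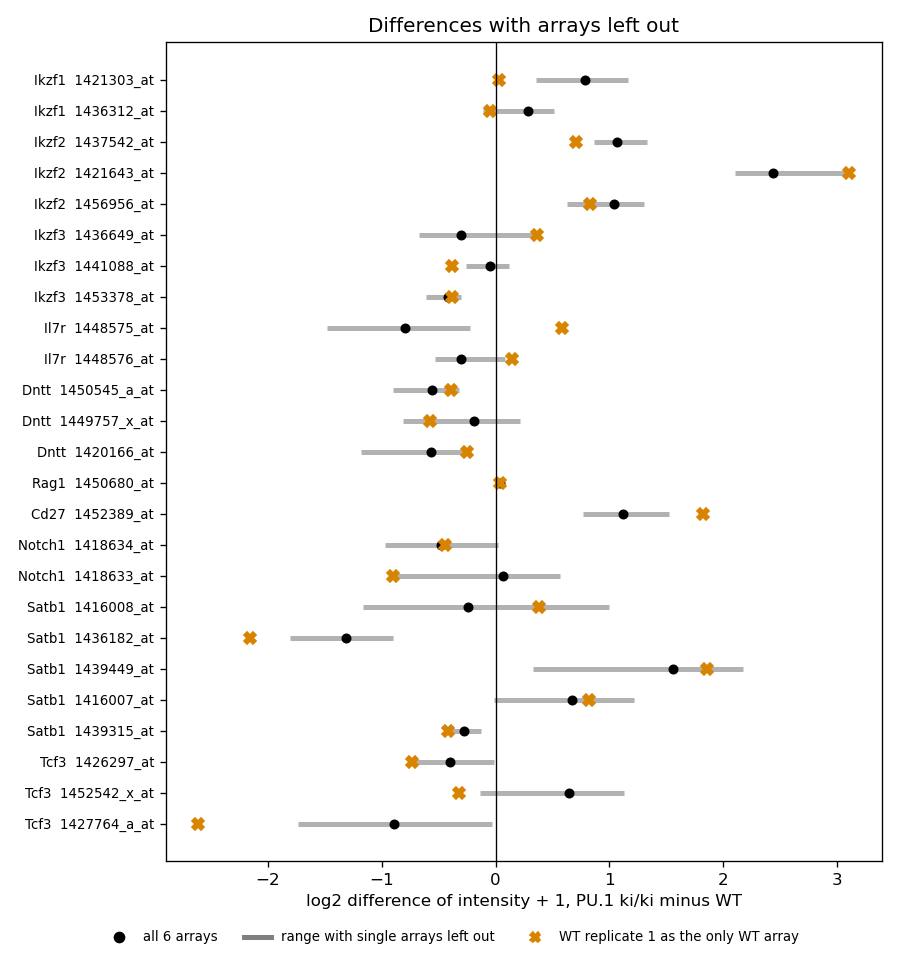
Difference of log2(intensity + 1), PU.1 ki/ki minus WT (horizontal), for each of the 25 probe sets (rows), with all 6 arrays (black points), its range when single arrays were left out (grey bars) and against WT replicate 1 as the only WT array (crosses). The 3 probe sets of Ikzf2 and that of Cd27 stay above 0 in every setting shown, although several of their crosses lie outside the grey bars. So do 1421303_at of Ikzf1, with its cross at 0.032, and 1439449_at of Satb1. Other probe sets, of Ikzf3, Dntt, Satb1 and Tcf3, stay below 0 in every setting shown. Crosses lie on the other side of 0 from the black point for probe sets of Ikzf1, Ikzf3, Il7r, Notch1, Satb1 and Tcf3.

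Genes that work with these factors were counted from lists, with 1 probe set per gene, the brightest. In limma 0 of their genes passed the adjusted threshold, as for all 18193 genes (0%), of which 12.7% did not overlap and 8.61% had an unadjusted p under 0.05. Of 18 genes of the Ikaros family and its NuRD, CtBP and Sin3 corepressors, 11 had a positive and 7 a negative difference, 2 and 2 of them without overlap (median 0.093). Gatad2b, a NuRD subunit, read 2974, 2305 and 4777 in PU.1 ki/ki, against 1699, 598 and 1247 in WT HSCs (difference 1.56, limma adjusted p = 0.550). Mbd2, a methyl-CpG binding subunit, read 484, 956 and 1386, against 3203, 2081 and 2617 (-1.59, limma adjusted p = 0.510). Its other probe set had the opposite sign, as had 2 of the 4 others of Gatad2b.

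Of 12 partners and inhibitors of E proteins, 9 were higher and 3 lower (median 0.30, and -0.041 against WT replicate 1 alone). Id4, an inhibitor of E proteins, read 98, 74 and 57 in PU.1 ki/ki, against 29, 42 and 31 in WT HSCs, without overlap (difference 1.13, limma adjusted p = 0.483). Id2, an inhibitor that favours innate lymphoid and NK cells, read 18, 45 and 37, against 78, 66 and 44, with overlap (-0.95, limma adjusted p = 0.626). Of the 3 probe sets of Id2, 1 had the opposite sign.

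Of 11 genes of IL-7 receptor signalling, 6 were higher and 5 lower (median 0.031). Socs1, a feedback inhibitor, read 35, 40 and 42 in PU.1 ki/ki, against 52, 77 and 60 in WT HSCs, without overlap (difference -0.66, limma adjusted p = 0.522). The kinase Pim1 read 1282, 1170 and 1845, against 1225, 635 and 1081, with overlap (0.57).

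Of 20 Notch pathway genes, 11 were higher and 9 lower (median 0.019). Maml2, a coactivator of Notch, read 400, 267 and 300 in PU.1 ki/ki, against 233, 183 and 39 in WT HSCs (difference 1.41, limma adjusted p = 0.660). The ligand Jag1 read 37, 59 and 35, against 70, 121 and 57, with overlap (-0.87). Of 4 genes of the Cd27 pathway, 3 were higher and 1 lower, and the ligand gene Cd70 read 10 to 18 on all arrays. The adaptors Traf5 and Traf2 overlapped between groups (1.18 and -0.55).

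Of 10 genes of V(D)J recombination and end joining, 7 were higher and 3 lower (median 0.61). This median was -0.11 against WT replicate 1 alone and 0.82 without that array. The part that the low readings of bright probe sets on WT replicates 2 and 3 have in it was not tested. Xrcc4, of the ligase complex, read 108, 128 and 100 in PU.1 ki/ki, against 51, 12 and 34 in WT HSCs (difference 1.97, limma adjusted p = 0.510). Polm, a polymerase related to terminal transferase, read 57, 49 and 60, against 105, 71 and 82 (-0.61, limma adjusted p = 0.551). Both were without overlap.

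Of 15 other genes of lymphoid-primed progenitors, 7 were higher and 8 lower (median -0.031). Lsp1, a leukocyte actin-binding protein, read 1344, 780 and 1104 in PU.1 ki/ki, against 130, 290 and 263 in WT HSCs (difference 2.28, limma adjusted p = 0.430). Ccr9, a chemokine receptor for homing to thymus and gut, read 74, 50 and 60, against 113, 97 and 146 (-0.94, limma adjusted p = 0.504, with 2 of its 4 other probe sets of the opposite sign). Both were without overlap, as were Runx3, higher, and Myb, lower. Of the 3 probe sets of Myb, 1 had the opposite sign.

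**Figure D4:**
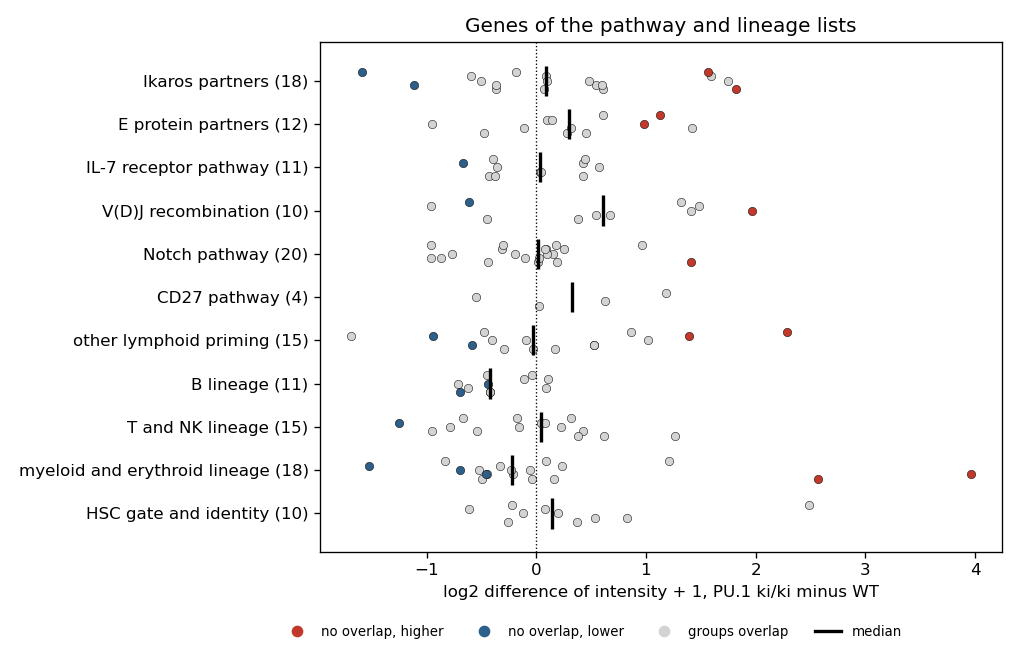
Difference of log2(intensity + 1), PU.1 ki/ki minus WT (horizontal), for the brightest probe set of each gene (points) in the pathway and lineage lists (rows, number of genes in brackets), with the median as a bar and colour for groups without overlap. Points lie on both sides of 0 in every list, and the point at the far right is C1qb, at the table minimum of 10 on all 3 WT arrays, so that the size of its difference is not measured.

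Markers of other cell types were read on the same arrays. Of 11 B lineage genes, 2 had a positive and 9 a negative difference, and 5, Ebf1, Cd79a, Pou2af1, Ms4a1 and Blk, read under 50 on every array. The summed B lineage intensity was 495 to 634 in PU.1 ki/ki and 528 to 1034 in WT HSCs. Such a sum follows its brightest probe sets and does not measure the share of a cell type. Cd79b alone read 221 to 263 in PU.1 ki/ki and 102 to 649 in WT HSCs. Blk, a B cell kinase, read 18, 18 and 15 in PU.1 ki/ki, against 21, 35 and 30, and Pou2af1, a B cell coactivator, read 10 to 14 on all 6 arrays.

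Of 15 T and NK cell genes, 8 were higher and 7 lower, and Cd3g, Klrd1, Eomes and Tbx21 read under 50 on every array. The sums over the 15 genes were 1050 to 1618 in PU.1 ki/ki and 1018 to 1987 in WT HSCs. They too follow bright probe sets, such as Cd247 with 336 to 807 and 162 to 848. Cd3e, a chain of the T cell receptor complex, read 43, 32 and 58 in PU.1 ki/ki, against 76, 98 and 150 in WT (difference -1.25, limma adjusted p = 0.511). Cd4 read 144, 53 and 100, against 58, 18 and 50, with overlap, and so differed in the other direction (1.26, limma adjusted p = 0.643). The lin- gate of the sort is meant to remove T cells, and the part of T cell RNA in the readings of Ikzf3, Satb1 and Il7r was not tested.

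Of 18 myeloid and erythroid genes, 6 were higher and 12 lower, and Itgam and Adgre1 read under 50 on every array. The sums over the 18 genes were 19547 to 24792 in PU.1 ki/ki and 24083 to 31511 in WT HSCs. These sums rested mostly on Mpo, Lyz2, S100a8 and S100a9. Ctsg, a neutrophil protease, read 804, 822 and 806 in PU.1 ki/ki, against 3739, 1527 and 2219 in WT (difference -1.52, limma adjusted p = 0.482). The erythroid factor Klf1 read 118, 123 and 159, against 42, 21 and 11 (2.57, limma adjusted p = 0.463). Both were without overlap.

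Of 10 genes of the HSC gate and HSC identity, 6 were higher and 4 lower, and 0 were without overlap. Kit, the receptor of the gate, read 452 to 1368 in PU.1 ki/ki and 374 to 1622 in WT HSCs. Slamf1, which encodes CD150, read 696, 1525 and 170, against 440, 54 and 42 (difference 2.48, limma adjusted p = 0.655), and Procr, the protein C receptor, 420 to 621 against 332 to 1287 (-0.61). Cd48, which the gate excludes, read 90 to 290 in PU.1 ki/ki and 75 to 704 in WT HSCs, with the 704 on WT replicate 1. That array also held the lowest Cd27 reading, and a link between these readings was not tested.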

How the data were processed

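RNA of sorted HSCs was measured on 6 single-colour arrays. The deposited table holds intensities on a linear scale, as whole numbers from 10 to 27574. Per the submitters' processing notes the authors used RMA, whose version, the return from its log scale and the floor of 10 are not given in the sources used here. Of 45101 entries, 64 controls were left out. Symbols came from the platform annotation (1 symbol for 34945 probe sets, several for 932, none for 9160). All 10 genes matched RefSeq by gene number.

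A linear model with genotype as its term was fitted to log2(intensity + 1) of all 45037 probe sets with limma 3.58.1 (R 4.3.3, lmFit and eBayes), with Benjamini-Hochberg adjustment, a threshold of 0.05 and no filter on dim probe sets. The added 1 can understate differences of dim probe sets. For single genes an exact permutation test, two-sided, was added. A gene's brightest probe set has the highest mean log2 value over the 6 arrays. Precision is limited by having 3 arrays per group.

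The text names all 10 genes, Spi1, the lowest p in each direction of each list, and the 3 genes most like Ikzf1. Runx3, Myb, C1qb, Cd70, Kit, Cd48, the marker genes named as under 50 and the bright genes named beside the marker sums were added after their values were seen. The genes and lists were chosen with earlier results of these data known. Alternatives were a further quantile normalization, centring, no pseudocount, dim probe sets left out, a trended and robust prior, array weights, a block for the replicate number, arrays left out, and averaging every probe set of a gene. The sample descriptions speak of embryos, which no other label does, and were set aside. Figures were drawn with matplotlib 3.10.9.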

Additional observations from a re-analysis of the deposited data

How the results depend on the processing

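No probe set of the table, and none of the 25 of these genes, passed the adjusted threshold in any alternative run in limma, nor did a gene in the exact permutation test, where 0.1 is the smallest p possible. Of 146 differences of the 10 genes (brightest probe set) under the alternatives, 138 kept their sign or were 0, and 8 reversed. Part of the 138 was fixed in advance. The trended and robust prior, the replicate block and leaving out dim probe sets cannot change an estimate. Averaging cannot change those of Rag1 and Cd27, which have a single probe set. The count is therefore not a measure of stability. With single arrays left out, Ikzf1 ran from 0.35 (without WT replicate 2) to 1.17 (without WT replicate 1), Il7r from -1.48 (without WT replicate 1) to -0.23 (without WT replicate 3), Dntt from -0.90 (without PU.1 ki/ki replicate 1) to -0.32 (without PU.1 ki/ki replicate 2) and Tcf3 from -0.77 (without PU.1 ki/ki replicate 3) to -0.013 (without PU.1 ki/ki replicate 2). Ikzf3 ran from -0.67 to 0.39 (highest without WT replicate 3), Notch1 from -0.97 to 0.025 and Satb1 from -1.16 to 0.996 (both highest without WT replicate 2). Ikzf3 was 0.36 without WT replicates 2 and 3, where Il7r was 0.58 and Satb1 0.38. Satb1 was 0.079 as the mean of all its probe sets. The cause was not tested. Rag1 is at the floor, where values have no order, and its -0.065 after centring on array medians comes from the shift that centring gives every probe set alike.

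The median difference of the 10 genes, -0.27, was -0.379 after quantile normalization, -0.381 after centring, 0.195 with dim probe sets left out (which leaves 6 genes), -0.31 without Rag1 (chosen after seeing the data), -0.084 with all probe sets averaged and 0.20 without WT replicates 2 and 3, and ran from -0.36 to 0.033 with single arrays left out. It has no stable sign. The number of the 25 probe sets with an unadjusted p under 0.05 in limma, 4, was 1 to 3 with single arrays left out, with 1 without PU.1 ki/ki replicate 2 and 2 without WT replicate 2. Over all probe sets that number, 3731, was 1701 with dim probe sets left out, which tests fewer, and 2535 to 7183 with single arrays left out, the highest without WT replicate 1.

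In the labels, arrays of the same replicate number share only that number. Their deviations from the group means correlated at -0.0159, 0.0207 and -0.0168, and 2 of 6 arrays correlated best with their own number. With the replicate number as a block, 3 of the 25 probe sets and 3369 of all had an unadjusted p under 0.05, and 0 passed adjustment.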
